A study of Mus musculus with 2 samples.

Results

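Described here are 9 mouse genes of the epithelial sodium channel and the aldosterone response in the newborn kidney: Scnn1a, Scnn1b, Scnn1g, Nr3c2, Hsd11b2, Sgk1, Nedd4l, Prss8 and Tsc22d3. They were taken by symbol, through the gene identifier, from 42462 named genes in the deposited tables, and all 9 were found in both libraries. Total RNA of kidney from B6NCrl mice, an inbred laboratory strain for which the labels name no mutation or treatment, was sequenced on postnatal day 0. There was 1 group of 2 pups of 1 mother, each library holding both kidneys of its pup, from 10 ng of RNA longer than 200 nt. The pups' sex is not given, and litter-to-litter variation is not sampled. With 1 group of 2 pups there was no condition to compare, so no p-value is given: levels were compared between genes, with the spread between pups as the error. In whole tissue, fewer cells of a type and less RNA per cell cannot be told apart.

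The epithelial sodium channel takes sodium up from the tubule fluid in the last parts of the nephron, the connecting tubule and the principal cells of the collecting duct. Aldosterone binds the mineralocorticoid receptor, which raises transcription of genes such as Sgk1, whose kinase phosphorylates the ubiquitin ligase Nedd4-2 and so keeps the channel at the cell surface. Cortisol and corticosterone also bind this receptor, and the enzyme encoded by Hsd11b2 inactivates them in aldosterone-responsive cells. Serine proteases such as prostasin raise the channel's activity.

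The libraries held 41584961 and 48823952 expected counts (estimated reads per gene) in pups 1 and 2. Levels are deposited TPM, which corrects for transcript length, so genes can be compared. A gene was counted as detected at 1 TPM or more in both pups, as 14597 (34.4%) of the named genes were. All 8 markers of principal and connecting tubule cells were detected, led in mean level by the water channel Aqp2 (547 and 638 TPM), the calcium-binding protein Calb1 (350 and 381 TPM) and the transcription factor Gata3 (81.5 and 75.9 TPM), with the vasopressin receptor Avpr2 lowest (19.7 and 18.7 TPM). All 5 markers of other nephron segments were detected, from the proximal phosphate transporter Slc34a1 (287 and 203 TPM), Slc12a1 (181 and 176 TPM) and Umod (109 and 104 TPM) to the podocyte gene Nphs1 (3.47 and 3.34 TPM). Of 6 adrenal cortex markers none was detected: the highest, Star, stood at 0.82 and 0.63 TPM, Cyp11a1 at 0.25 and 0.52 TPM, Hsd3b1 at 0.23 and 0.14 TPM, and Cyp11b2, the aldosterone synthase gene, at 0 in both pups. All 4 endothelial markers were detected: Plvap at 148 and 164 TPM, Pecam1 at 45.4 and 43.3 TPM, Cdh5 at 27.0 and 27.9 TPM, and Kdr at 18.0 and 15.6 TPM. So were the 3 leukocyte markers, Lyz2 at 61.1 and 60.9 TPM, Csf1r at 12.6 and 10.5 TPM, and Ptprc at 4.52 and 4.86 TPM.

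All 9 genes were detected, over an 18.0-fold range of level. By gene level, from high to low, the order was Sgk1, Prss8, Tsc22d3, Scnn1b, Scnn1g, Hsd11b2, Scnn1a, Nedd4l and Nr3c2, and it was the same in both pups. In none of the 8 pairs of neighbours did the pups' values overlap, although Sgk1 and Prss8 lay within 1.11-fold of each other and Tsc22d3 and Scnn1b within 1.17-fold. For 7 of the genes the level was in the upper 50% of detected genes; the exceptions were Nedd4l and Nr3c2. The median of the 9 genes was 53.0 TPM in pup 1 and 47.7 TPM in pup 2, against 16.3 and 15.5 TPM over all detected genes. For Nr3c2 and Tsc22d3 most of the level came from transcripts without a complete coding sequence, as described below for each. On complete coding transcripts only, the order differed. Tsc22d3 (25.2 and 21.1 TPM) then lay below Scnn1b, Scnn1g and Hsd11b2 (36.9 and 33.8 TPM). In pup 1 Sgk1 (114.18 TPM) then lay just below Prss8 (114.2 TPM).

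**Figure D1:**
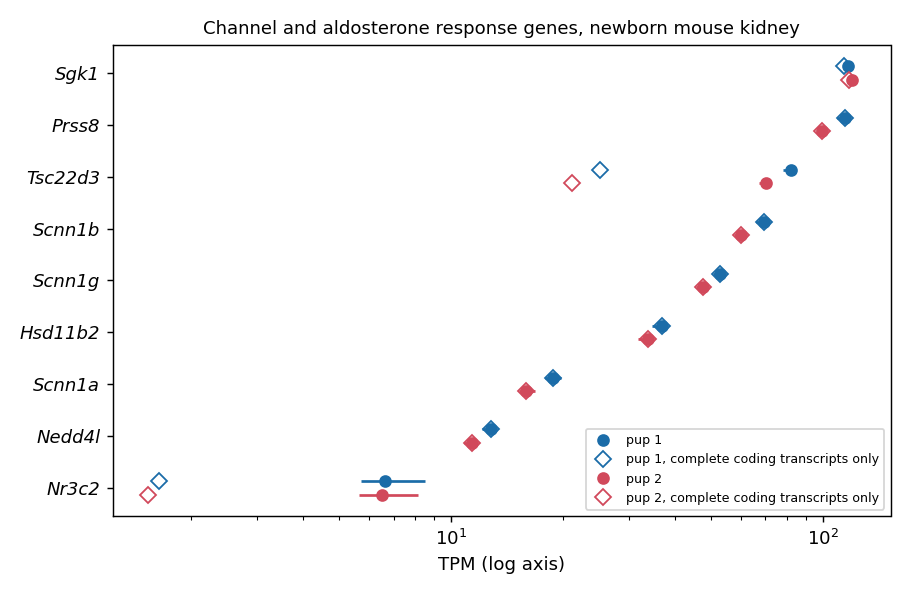
Level of each of the 9 genes in TPM (log axis), with filled circles for the gene level in pup 1 (blue) and pup 2 (red), lines for the authors' deposited interval, and open diamonds for transcripts with a complete coding sequence only. Circles and diamonds coincide for most genes and lie apart for Nr3c2 and Tsc22d3.

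The channel is built of an alpha, a beta and a gamma subunit, encoded by Scnn1a, Scnn1b and Scnn1g. The tail of each subunit ends near a short motif, PPxY (proline, proline, any residue, tyrosine), to which Nedd4-family ligases bind. The coding strand around it is shown for the 3 subunits because this motif joins the channel to the ligase gene Nedd4l described below. The 4 codons of the motif are in capitals, read 5′ to 3′ on the plus strand of GRCm38 (mm10).
Scnn1a, chr6:125343981-125344022: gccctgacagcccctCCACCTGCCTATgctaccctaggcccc
Scnn1b, chr7:121917970-121918011: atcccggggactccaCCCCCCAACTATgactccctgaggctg
Scnn1g, chr7:121767454-121767495: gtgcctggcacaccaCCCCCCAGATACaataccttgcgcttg
Each stretch lies in 1 exon, and each coding sequence held 1 match. The motif began at codon 671 of 700 in Scnn1a, 615 of 638 in Scnn1b and 630 of 655 in Scnn1g, so that 26, 20 and 22 codons followed it. Of the 42 bases, Scnn1b and Scnn1g shared 27, Scnn1a and Scnn1b 21, and Scnn1a and Scnn1g 18.

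Scnn1b was the highest subunit and Scnn1a the lowest. Scnn1a (ENSMUSG00000030340.12, chr6:125320659-125344943, plus strand) stood at 18.7 TPM in pup 1 and 15.9 TPM in pup 2 (mean 17.3 ± 2.04, SD, n = 2). Scnn1b (ENSMUSG00000030873.8, chr7:121865038-121918514, plus strand) stood at 69.3 and 60.3 TPM (64.8 ± 6.39, n = 2), and Scnn1g (ENSMUSG00000000216.8, chr7:121734479-121768475, plus strand) at 53.0 and 47.7 TPM (50.3 ± 3.75, n = 2). All 3 subunits were lower in pup 2, yet no pup's value for one subunit reached any value of another. Scnn1b exceeded Scnn1a 3.70-fold in pup 1 and 3.80-fold in pup 2, a log2 ratio of Scnn1a to Scnn1b of -1.91 ± 0.03 (n = 2). Scnn1g exceeded Scnn1a 2.83-fold and 3.004-fold. Scnn1b exceeded Scnn1g by less, 1.31-fold and 1.26-fold. Of the summed TPM of the subunits, 141 and 124 in the pups, Scnn1a held 13.3% and 12.8%, Scnn1b 49.2% and 48.7%, and Scnn1g 37.6% and 38.5%.

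Scnn1b and Scnn1g lie on the same strand of chromosome 7, 96562 bp apart, with 1 annotated gene (Gm44740) and no protein-coding gene between them. Each was represented by a single transcript. Scnn1a had 7 annotated transcripts. Of its TPM, Scnn1a-201 held 89.9% and 90.4% and Scnn1a-203, which starts 666 bp upstream, 10.1% and 9.63%. The other 5 were listed at 0. All bases of Scnn1a-203 also lie in other transcripts of the gene, so its share is uncertain. The deposited interval of Scnn1a-203 ran from 0.38 to 2.41 TPM in pup 1 and 0.09 to 1.80 TPM in pup 2. Cog7 lies on the opposite strand across 39152 bp of Scnn1b and stood at 11.8 and 9.02 TPM. Which strand was counted is not stated in the sources used here, so reads of the pair may not be fully separated.

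The acid-sensing channel genes Asic1 to Asic5 belong to the same degenerin family. Of these 5 only Asic2 was detected, at 2.36 and 2.05 TPM; Asic1 stood at 0.81 and 0.66 TPM, Asic5 at 0.69 and 0.82 TPM, and the lowest, Asic3, at 0.18 and 0.28 TPM. Every subunit of the sodium channel was thus above every one of these relatives in both pups. Set against Aqp2, the principal cell water channel, all 3 subunits were lower: Scnn1b by 7.89-fold in pup 1 and 10.6-fold in pup 2, Scnn1g by 10.3-fold and 13.4-fold, and Scnn1a by 29.2-fold and 40.3-fold. These ratios differed more between the pups than those among the subunits, Aqp2 being higher in pup 2 and the subunits lower.

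Nr3c2, the mineralocorticoid receptor gene (ENSMUSG00000031618.9, chr8:76899442-77245012, plus strand), was the lowest of the 9 genes. It stood at 6.65 TPM in pup 1 and 6.49 TPM in pup 2 (6.57 ± 0.11, n = 2), from 419 and 457 expected counts. The authors' interval was wide beside those of the other genes, 5.71 to 8.48 TPM in pup 1 and 5.66 to 8.14 TPM in pup 2. Transcript estimates show where that level came from. Nr3c2-206, a 612-nt transcript of 3 exons with an incomplete coding sequence, held 62.0% and 67.3% of the gene's TPM on only 62.7 and 81.7 expected counts, and 94.9% of its bases also lie in Nr3c2-203. Nr3c2-203, a 5675-nt transcript with a complete coding sequence, held 15.7% and 19.9% of TPM on 172 and 262 expected counts. The nonsense-mediated decay transcript Nr3c2-208 held 13.4% and 9.19%, and Nr3c2-204, which starts 2516 bp further upstream, 8.98% and 2.75%. Complete coding transcripts therefore held 65.7% and 67.4% of the Nr3c2 counts but 24.7% and 23.6% of its TPM, at 1.64 and 1.53 TPM.

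**Figure D2:**
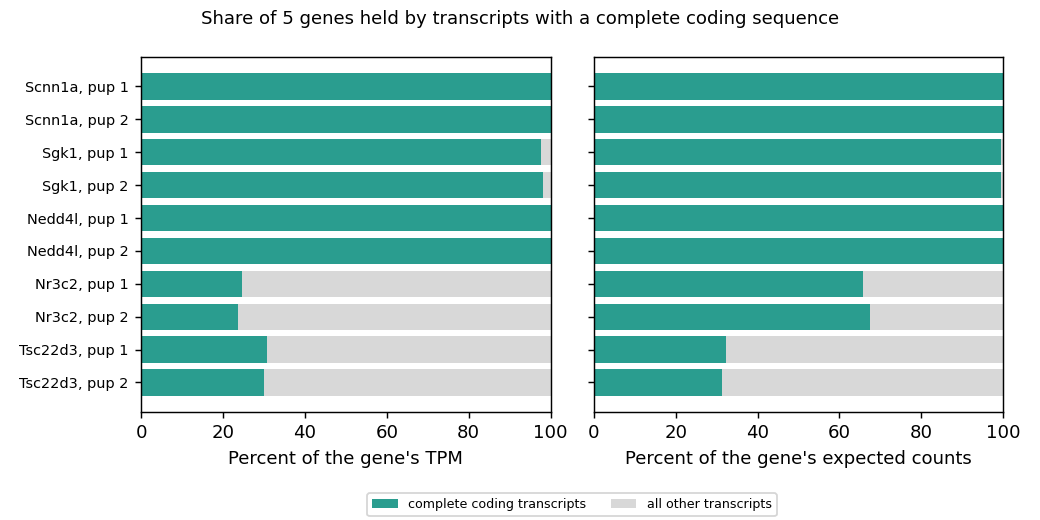
Percent of each gene's TPM (left) and expected counts (right) held by transcripts with a complete coding sequence (green) and by all other transcripts (grey), for the 5 genes with more than 1 transcript in each pup. Scnn1a, Sgk1 and Nedd4l are almost wholly green, Tsc22d3 is mostly grey in both panels, and Nr3c2 is mostly grey by TPM and mostly green by counts.

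Hsd11b2, whose enzyme converts active glucocorticoids to inactive ones (ENSMUSG00000031891.5, chr8:105518755-105523988, plus strand), stood at 36.9 and 33.8 TPM (35.4 ± 2.18, n = 2), all from 1 transcript. It exceeded Hsd11b1, whose enzyme works mainly in the opposite direction, 5.13-fold in pup 1 and 3.71-fold in pup 2; Hsd11b1 stood at 7.19 and 9.12 TPM. Hsd11b2 exceeded Nr3c2 5.55-fold and 5.21-fold, a log2 ratio of 2.43 ± 0.06, which became 4.48 with complete coding transcripts only. The glucocorticoid receptor gene Nr3c1 stood at 41.3 and 36.5 TPM, 6.20-fold and 5.62-fold above Nr3c2. Nr3c1 too had most of its level outside complete coding transcripts, which stood at 14.01 and 13.56 TPM. On complete coding transcripts alone the log2 ratio of Nr3c2 to Nr3c1 moved from -2.56 to -3.12. All 7 listed genes of receptor function and hormone access were detected, with a median of 41.3 and 36.5 TPM. The chaperone genes Hsp90ab1 (1149 and 1032 TPM), Hsp90aa1 (390 and 375 TPM) and Fkbp4 (259 and 228 TPM) were highest, and Hsd11b1 was lowest.

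Sgk1, the aldosterone-induced kinase gene (ENSMUSG00000019970.11, chr10:21882184-21999903, plus strand), was the highest of the 9, at 117 TPM in pup 1 and 120 TPM in pup 2 (118 ± 2.08, n = 2). It was the only one of the 9 with more TPM in pup 2, where 68.5% of genes with at least 50 expected counts had less. In the detected genes it ranked 1351 of 14597. It exceeded its relative Sgk3 (21.7 and 19.8 TPM) 5.38-fold and 6.06-fold.

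Sgk1 has several annotated starts, and the transcript estimates divided its level very unequally among them. Use of the starts was not measured apart from these model estimates. Transcripts placed within 100 bases of the leading start, that of Sgk1-201, held 88.4% and 89.5% of Sgk1 TPM, or 103 and 107 TPM. Sgk1-202, which starts 776 bp upstream, held 8.15% and 7.28%. Sgk1-203, 2443 bp upstream, held 1.56% and 1.71%, and Sgk1-204, 112482 bp upstream, 0.33% and 0.22%. Only 22 bases of Sgk1-201 and 0 of Sgk1-203 lie outside the gene's other transcripts. The deposited interval of Sgk1-203 ran from 0.06 to 2.80 TPM in pup 1 and 0.05 to 2.90 TPM in pup 2. Complete coding transcripts held 97.6% and 98.0% of the gene's TPM. The 250 bases before the 2 starts of highest share are shown because one of them holds a palindromic steroid receptor motif and the other does not. They are RefSeq promoter sequence of GRCm38.p6, plus strand. Capitals mark the half-site TGTTCT or its reverse complement AGAACA, and the bases between the paired half-sites of the palindrome.
Sgk1-201, chr10:21994416-21994665: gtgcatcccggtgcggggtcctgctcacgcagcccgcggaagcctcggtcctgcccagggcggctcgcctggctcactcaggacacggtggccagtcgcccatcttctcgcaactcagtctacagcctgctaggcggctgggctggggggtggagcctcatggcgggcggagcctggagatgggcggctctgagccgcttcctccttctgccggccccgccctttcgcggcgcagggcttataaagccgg
Sgk1-202, chr10:21993640-21993889: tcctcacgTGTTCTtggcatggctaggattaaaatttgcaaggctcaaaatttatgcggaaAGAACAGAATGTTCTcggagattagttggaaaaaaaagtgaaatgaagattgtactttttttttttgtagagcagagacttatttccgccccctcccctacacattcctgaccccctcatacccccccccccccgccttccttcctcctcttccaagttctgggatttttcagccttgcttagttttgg
The window of Sgk1-201 held no half-site, 22 CG dinucleotides and TATAAA in its last 50 bases; the window of Sgk1-202 held 3 half-sites and 5 CG dinucleotides. The pair of half-sites in AGAACAGAATGTTCT, at chr10:21993701-21993715, matches the palindrome GNACA and TGTNC set 3 bases apart. Its first base lies 189 bases before the start of Sgk1-202 and 965 bases before the leading start. Of 32851 RefSeq windows of this length, 16.1% held a half-site on either strand, 0.387% the palindrome and 2.63% TATAAA in the last 50 bases. RefSeq windows were matched for 5 of the 9 genes, 12 windows in all, of which 4 held a half-site and 1 of these the palindrome as well; the 6 windows of Sgk1 share 1 locus. A match is a description of letters and not a binding site.

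Nedd4l, the gene of Nedd4-2 (ENSMUSG00000024589.11, chr18:64887705-65217828, plus strand), was lower than all of the 9 genes but Nr3c2, at 12.8 and 11.4 TPM (12.1 ± 1.01, n = 2), so that Sgk1 exceeded it 9.14-fold and 10.5-fold. The related ligase gene Nedd4 stood at 359 and 301 TPM, 28.1-fold and 26.4-fold above Nedd4l. Nedd4l-202 held 77.0% and 76.7% of the Nedd4l level and Nedd4l-201 the remaining 23.0% and 23.3%. Both transcripts differ in length between the deposited release and GENCODE M21, used here for coding sequences. Nedd4l-202 has 8163 nt as deposited and 7787 nt in M21, and Nedd4l-201 8212 and 3671 nt. Of the other genes listed for kinase and ubiquitin control of the channel, all 11 were detected, with a median of 60.1 and 50.8 TPM. The highest were the 14-3-3 genes Ywhae (663 and 565 TPM) and Ywhab (237 and 208 TPM) beside Nedd4, and the lowest was Rictor, a subunit gene of the kinase complex mTORC2, at 10.0 and 8.91 TPM.

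Prss8, the gene of prostasin, a serine protease anchored in the apical membrane (ENSMUSG00000030800.9, chr7:127925716-127930104, minus strand), was second to Sgk1. It stood at 114 TPM in pup 1 and 99.6 TPM in pup 2 (107 ± 10.3, n = 2), all from 1 transcript. It exceeded St14, the gene of matriptase, which activates prostasin and is activated by it, 2.78-fold and 2.73-fold; St14 stood at 41.1 and 36.5 TPM. Spint2, the gene of a protease inhibitor, stood above both at 360 and 376 TPM, 3.15-fold and 3.78-fold above Prss8. Of 9 listed channel-cleaving proteases and inhibitors, 8 were detected, with a median of 62.1 and 56.6 TPM. Serpine2 (182 and 162 TPM) and the kallikrein gene Klk1 (74.0 and 110 TPM) followed Spint2, and Tmprss4, at 0.39 and 0.29 TPM, was the one not detected. Kat8 overlaps Prss8 by 122 bp on the opposite strand and stood at 24.0 and 24.4 TPM.

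Tsc22d3, which encodes the glucocorticoid-induced leucine zipper protein, is also induced by aldosterone (ENSMUSG00000031431.9, chrX:140539528-140600659, minus strand). It stood at 81.9 TPM in pup 1 and 70.3 TPM in pup 2 (76.1 ± 8.20, n = 2). Most of this level was assigned to Tsc22d3-202, a transcript of 1790 nt with no annotated coding sequence, at 68.9% and 69.5% of TPM. Its start lies 519 bp downstream of that of Tsc22d3-201, within an intron of the latter, and 91.2% of its bases are shared with Tsc22d3-201. Tsc22d3-201, with a coding sequence of 411 nt, held 27.1% and 25.3%, and Tsc22d3-203, with a coding sequence of 603 nt and a start 57472 bp upstream, 3.35% and 4.49%. Complete coding transcripts amounted to 25.2 and 21.1 TPM, or 30.7% and 30.0% of the gene level. The counts gave a like share, 32.3% and 31.3%. This division is a model estimate: 158 bases of Tsc22d3-202 and 1 base of Tsc22d3-201 lie outside the gene's other transcripts. Use of the starts was not measured directly. The 250 bases before the start of Tsc22d3-202 are shown because most of the gene's level was assigned to this transcript (RefSeq, GRCm38.p6, minus strand).
Tsc22d3-202, chrX:140542669-140542918: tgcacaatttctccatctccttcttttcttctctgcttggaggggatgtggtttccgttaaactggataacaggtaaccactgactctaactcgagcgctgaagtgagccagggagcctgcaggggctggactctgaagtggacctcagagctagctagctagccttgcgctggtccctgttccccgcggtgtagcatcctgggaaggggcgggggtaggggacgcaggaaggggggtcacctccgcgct
No half-site was found in this window, nor TATAAA in its last 50 bases; it is therefore printed without capitals.

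Tsc22d3 exceeded Fkbp5, a steroid-induced gene of a receptor co-chaperone, 4.97-fold in pup 1 and 5.57-fold in pup 2; Fkbp5 stood at 16.5 and 12.6 TPM. The log2 ratio was 2.39 ± 0.12 and fell to 0.68 with complete coding transcripts only. Of 8 other listed steroid-induced genes, 7 were detected, with a median of 14.98 and 12.26 TPM over the list. Ndrg2 (65.4 and 68.3 TPM), the deubiquitinase gene Usp2 (60.1 and 50.8 TPM) and the phosphatase gene Dusp1 (23.4 and 25.1 TPM) were highest. Zbtb16 was lowest and not detected, at 0.22 and 0.12 TPM. The gene levels of Sgk1 and Tsc22d3 lay above all 8 in both pups. The complete coding transcripts of Tsc22d3 lay below the gene levels of Ndrg2 and Usp2 in both pups and of Dusp1 in pup 2. Complete coding levels of Ndrg2, Usp2 and Dusp1 were not computed, so a part is set against whole genes there. Over all pathway lists, 32 of 38 genes were detected.

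**Figure D3:**
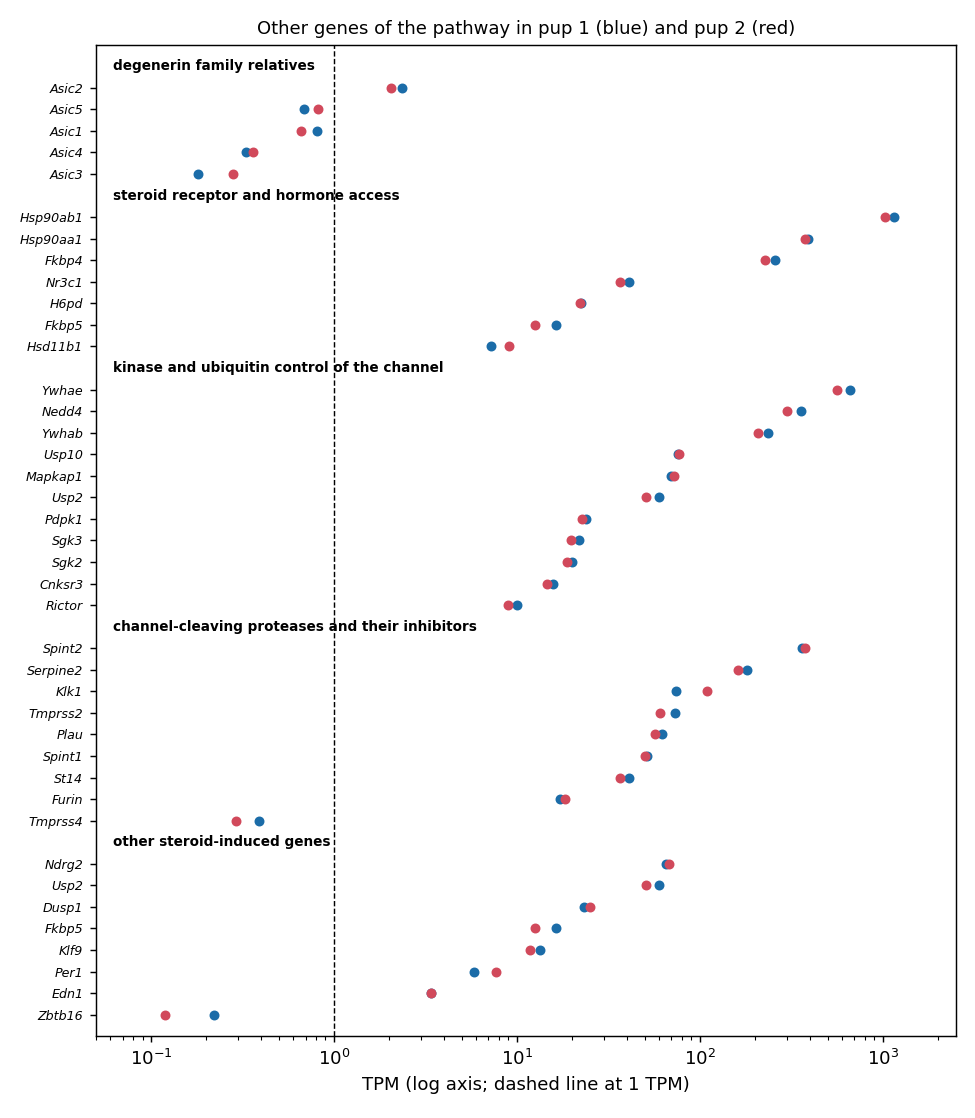
Level in TPM (log axis) of the other genes of the pathway, grouped by list, in pup 1 (blue) and pup 2 (red), with a dashed line at the detection level of 1 TPM. Most genes lie right of the line; 4 of the 5 degenerin relatives, Tmprss4 and Zbtb16 lie left of it, and Fkbp5 and Usp2 appear in both lists that hold them.

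The pups differed little in the 9 genes. Differences are log2 ratios of pup 2 to pup 1 in counts scaled by TMM factors, with 0.1 CPM added, and intervals are exact binomial at 95% for counting error only. None of the 9 differed by 2-fold, against 89 of 15150 genes tested (0.587%), and 5 of the 10210 (0.049%) with 400 to 11000 expected counts in both pups, a range that holds the 9. Sgk1 was higher in pup 2, at 0.13 (0.09 to 0.17). The other 8 lay below 0, from -0.03 for Hsd11b2 (-0.12 to 0.06) to -0.15 for Scnn1a (-0.24 to -0.06). Scnn1b lay at -0.11 (-0.17 to -0.05), Prss8 at -0.10 (-0.16 to -0.05) and Tsc22d3 at -0.13 (-0.19 to -0.07). The intervals of Hsd11b2 and of Nr3c2 (-0.08, interval -0.28 to 0.11) included 0, and those of the other 7 did not. The median of the 9 was -0.08, against 0.0061 over all genes tested, of which 48.3% lay below 0. In the count range of the 9 genes the median was -0.0035, and 51.4% lay below 0. Of all tested genes 95% lay within 0.44 of 0, and 95% of those in the count range of the 9 genes within 0.28. All 9 thus lay inside the range of most genes, and 1 animal against 1 gives no replicate check.

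**Figure D4:**
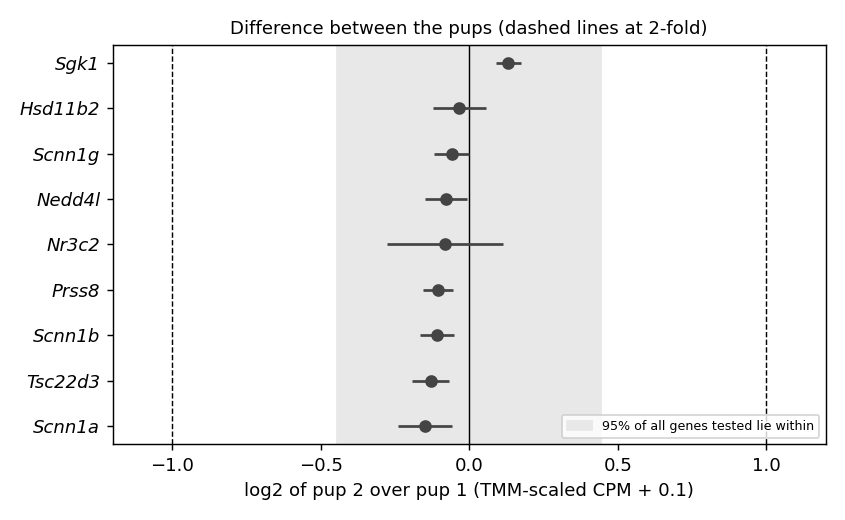
Log2 ratio of pup 2 to pup 1 for each of the 9 genes (points), with exact binomial 95% intervals for counting error (lines), the range that holds 95% of all genes tested (grey) and dashed lines at 2-fold. Sgk1 lies above 0 and the other 8 below, all inside the grey range.

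On the same scale the 6 urothelial markers had a median log2 ratio of pup 2 to pup 1 of 0.52. The lowest was Trp63, at 0.10 with an interval that included 0 (-0.26 to 0.46) and a TPM that was lower in pup 2, and the highest Krt5, at 1.92. Their summed level was 144 TPM in pup 1 and 195 TPM in pup 2. The uroplakin genes Upk3a (60.2 and 82.1 TPM), Upk1a (31.9 and 42.2 TPM) and Upk1b (29.4 and 39.4 TPM) were highest, and Trp63 (1.03 and 1.00 TPM) was lowest on the mean; Krt5, singled out after its values were seen, was the one of the 6 past 2-fold, at 0.63 and 2.41 TPM. The 8 principal and connecting tubule markers had a median log2 ratio of -0.00062, with 4 below 0, and summed to 1177 and 1278 TPM. Aqp2 itself was higher in pup 2, at 0.32 (0.29 to 0.34), in contrast to the subunit genes. The list was divided: Calb1 lay at 0.26 and Avpr2 at 0.06, but Gata3 at -0.06. The 4 markers below 0 went the same way as the subunit genes. On deposited TPM, 5 of the 8 markers were lower in pup 2. The part of these cell types in the differences of the 9 genes was not tested.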

How the data were processed

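The authors deposited, per the file headers, gene and transcript tables of expected counts (estimated reads, not normalised) and TPM, with posterior means, and each transcript's percent of its gene's TPM. Text deposited with each library names mm10 and GENCODE M4; not given in the sources used here were the aligner, software versions and counting strand. Genes were matched by identifier without version to GENCODE M21 (the same assembly), which gave names, coordinates and coding sequences; 36 of the 40 transcripts of the 9 genes have the same length in both releases. Lengths printed are those of the deposited tables, and codons leave out the stop.

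The genes, lists and alternatives were chosen with earlier results of these data known. Named were the 9 genes, every gene of 16 pairs, and the 3 highest and the lowest of each list by mean TPM. Protein-coding genes overlapping the 9 were also named, as was Gm44740, which lies between Scnn1g and Scnn1b. Any other gene named is said to be singled out. Non-coding genes that overlap Nr3c2 and Nedd4l were left unnamed. Level ratios were log2 TPM ratios within a pup, given as mean ± SD. Pup differences used expected counts of genes with at least 50 in either pup, TMM factors (edgeR 4.0.16, R 4.3.3) and 0.1 CPM added, called at 2-fold; their 95% intervals are exact binomial, from rounded counts. DESeq2 1.42.0 size factors were an alternative. Depth was 41584961 and 48823952 expected counts; where 0 was counted, up to 3 counts (0.0721 and 0.0614 CPM) remain possible. Such floors and the intervals cover counting error only. Of these steps only the 2-fold call between pups was run on simulated counts, there scaled by library totals without TMM factors. Scripts ran in Python 3.11.15 (SciPy 1.17.1, Biopython 1.88, NumPy 2.4.6, pandas 2.3.3, Matplotlib 3.10.9).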

Additional observations from a re-analysis of the deposited data

How the results depend on the processing

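With 2 littermates and 1 group, values describe these libraries, and transcript shares are model estimates that short or overlapping transcripts make less certain. All 9 genes were detected, and none was past 2-fold between pups, under each of the 7 alternatives run for each count. Several of these could not have changed the result. Dropping a pup, a level of 0.5 TPM and upward rescaling cannot lose a detected gene. Lower count minimums leave the ratios of the 9 genes as they are, and adding 0.5 CPM draws ratios towards 0. No level ratio of the 16 pairs, and no pup difference of the 9 genes, changed sign. Pup differences of other genes were not followed gene by gene. Detected degenerin relatives numbered 3 at a level of 0.5 TPM and 0 at 5 TPM, against 1. The log2 ratio of Scnn1a to Scnn1b was -1.87 with posterior mean TPM and -1.85 on log2(TPM + 1); that of Hsd11b2 to Nr3c2 was 2.32 and 2.26, and 4.48 with complete coding transcripts only, an alternative chosen after seeing the data. With that alternative Nr3c2 averaged 1.59 TPM and Tsc22d3 23.1 TPM. The order of the 9 genes changed with it. Tsc22d3 fell below Scnn1b, Scnn1g and Hsd11b2 in both pups, and Sgk1 fell just below Prss8 in pup 1. Over all genes, those past 2-fold numbered 89, and 57 with 0.5 CPM added, 385 with at least 10 and 638 with at least 1 expected count, and 390 at 1.5-fold. Taking the ratio of deposited TPM moved the median over all genes to -0.08 and Sgk1 to 0.04, with 8 of the 9 genes below 0, beside 68.5% of all genes (48.3% with TMM factors); the share of calls higher in pup 2 went from 73.0% to 62.6%. It was 64.9% and 61.6% with the lower count minimums. Posterior mean percents put the leading transcript at 86.0% for Scnn1a, 59.7% for Nr3c2 and 87.2% for Sgk1. TPM rescaled over protein-coding genes multiplied all levels by 1.15 in pup 1 and 1.18 in pup 2. By definition, lower count minimums and a lower fold can only add calls. The rescaling factors follow from the protein-coding share of TPM, 86.6% in pup 1 and 84.8% in pup 2. The cause of the other shifts was not tested.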
